A study of Mus musculus with 12 samples.

Results

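The 9 T lymphocyte genes described here are *Cd3d*, *Cd3e*, *Cd3g*, *Cd4*, *Cd8a*, *Trdc*, *Il2rb*, *Gzmb* and *Foxp3*, taken by symbol from the 35976 genes counted in each of 12 mouse scar libraries. Of these, 8 had a row and all 8 passed the low-count filter that left 18853 genes for testing. *Trdc* had no row in the files analysed here, so no value is given for it. The list was drawn up by name and not by a rule on measured levels, although earlier results of these data were known. The scars came from male Tem1WT/WT mice and from male Tem1lacZ/lacZ mice, in which the coding exon of *Tem1* (listed as *Cd248*) is replaced by the lacZ reporter in every cell of the body and which had been backcrossed to C57BL/6J. The mice were 8 to 12 weeks old, and each received a 1.5 cm wound in the back skin. A plastic device was placed on the wound on day 6. In the traction groups the device was lengthened daily by 1 mm until it had reached 8 mm, and in the sham groups it stayed in place without lengthening. RNA from part of a scar was sequenced from 3 mice in each of the 4 groups.

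T lymphocytes recognise antigen through a T cell receptor whose signal is carried by the CD3 chains gamma, delta and epsilon together with the zeta chain. CD4 marks helper and regulatory T cells and CD8 marks cytotoxic T cells. Mouse skin also holds epidermal T cells with a gamma delta receptor, which carry neither coreceptor and take part in wound repair, and the dermis holds regulatory T cells that restrain inflammation. Several of these genes are not confined to T cells, since *Il2rb* and *Gzmb* are also expressed by natural killer (NK) cells and *Cd4* by some mouse macrophages and dendritic cells. RNA of a whole scar cannot tell fewer cells of a type apart from less RNA per cell.

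The 3 CD3 genes lie side by side on mouse chromosome 9 (GRCm38, gene models of GENCODE vM21). *Cd3g* lies at chr9:44969572-44980431 on the minus strand, *Cd3d* at chr9:44981786-44987339 on the plus strand and *Cd3e* at chr9:44998740-45009627 on the minus strand. *Cd3g* and *Cd3d* are transcribed away from each other across 1354 bases, and the whole cluster spans 40056 bases. The 150 bases upstream of each RefSeq start (GRCm38) are shown because these neighbouring genes encode chains of the same complex and are described together here, with every E-box (CANNTG, searched on both strands, which read alike) in capitals.
Cd3g, chr9:44980432-44980581, minus strand: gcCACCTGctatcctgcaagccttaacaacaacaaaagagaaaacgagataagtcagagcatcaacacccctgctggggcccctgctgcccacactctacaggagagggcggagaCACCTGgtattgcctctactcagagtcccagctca
Cd3d, chr9:44981636-44981785, plus strand: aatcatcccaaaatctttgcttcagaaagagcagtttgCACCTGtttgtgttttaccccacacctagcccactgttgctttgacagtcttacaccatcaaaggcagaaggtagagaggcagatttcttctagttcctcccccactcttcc
Cd3e, chr9:45009612-45009761, minus strand: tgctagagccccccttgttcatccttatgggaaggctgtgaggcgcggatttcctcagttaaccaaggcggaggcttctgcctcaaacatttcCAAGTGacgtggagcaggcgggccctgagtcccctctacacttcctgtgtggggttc
The *Cd3g* window held 2 E-boxes and those of *Cd3d* and *Cd3e* held 1 each. An E-box stood in 47.66% of 32851 RefSeq windows of this length, so its presence in these windows is a description only. *Cd4* (chr6:124864692-124888221, minus strand) and *Cd8a* (chr6:71373427-71379173, plus strand) lie far apart on chromosome 6. *Il2rb* is at chr15:78479256-78495271 on the minus strand, *Gzmb* at chr14:56258838-56262260 on the minus strand and *Foxp3* at chrX:7573644-7595245 on the plus strand. Exons of *Cd3e* overlap the antisense gene Gm48719, and exons of *Foxp3* overlap Flicr on the same strand and Ccdc22, Gm36995 and Ppp1r3f on the other, so their counts are uncertain to that extent.

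The libraries held 41536788 to 64644293 counted reads. *Cd248* had 3883 to 16413 reads in the Tem1WT/WT libraries and 0 to 13 in the Tem1lacZ/lacZ libraries. The 8 genes were measured at 23 to 2027 reads per library, so a low value such as 23 reads of *Cd8a* carries a larger counting error than the 253 to 2027 reads of *Cd4*. Levels are given in CPM, read counts scaled to library size with the TMM factor of each library. Per kilobase of exon, the mean level in the Tem1WT/WT sham group ran from *Cd4* (3.71 CPM per kb) through *Cd3g* (3.19), *Il2rb* (2.19), *Gzmb* (1.77), *Cd3e* (1.69), *Cd3d* (1.03) and *Cd8a* (0.724) down to *Foxp3* (0.464). The ranges of each pair of neighbours in this order overlapped over the 3 mice. One library stood apart from the others. In replicate 1 of the Tem1WT/WT mice with traction, *Ptprc*, the CD45 gene of all leukocytes, was at 567 CPM, against 71.0 to 249 CPM in the other 11 libraries. The summed neutrophil markers (15 genes) were at 8011 CPM there and at 141 to 826 CPM elsewhere and remained apart without S100a9, their leading gene there (4078 CPM against 95.2 to 701 CPM). The summed mast cell markers (9 genes) were at 1277 CPM, but *Hdc*, the histamine-forming enzyme, made up 1009 CPM of this, and the other 8 genes summed to 268 CPM, within the 127 to 307 CPM of the other libraries. Results below are given with and without replicate 1 of that group.

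**Figure D1:**
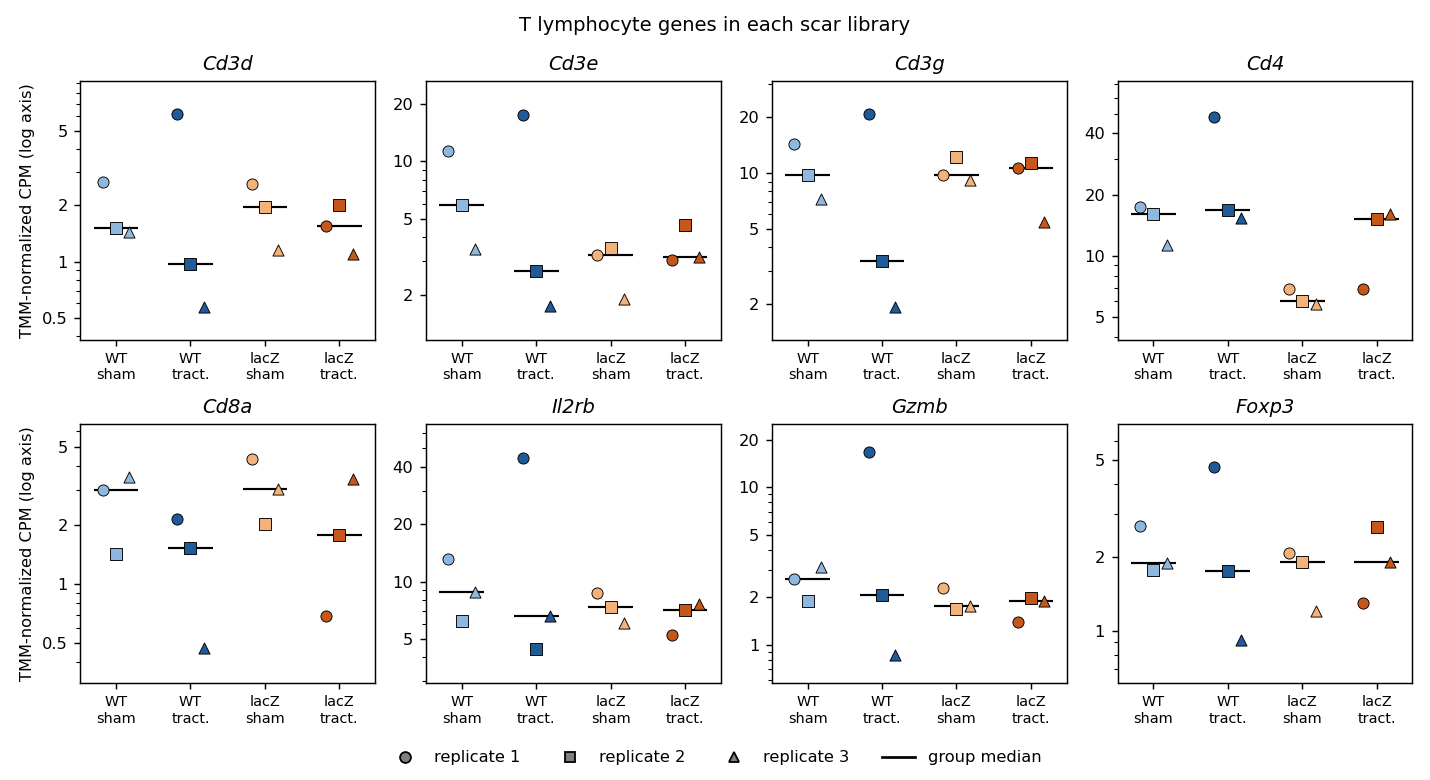
Level of each T lymphocyte gene in the 12 scar libraries, with TMM-normalized CPM on a log axis. Circles, squares and triangles are replicates 1, 2 and 3 of a group and the line is the group median; in every panel but that of Cd8a the highest point is replicate 1 of the Tem1WT/WT mice with traction.

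No T lymphocyte gene passed the threshold in any comparison of the groups when all 12 libraries were used (edgeR's quasi-likelihood test, Benjamini-Hochberg adjusted p under 0.05). Traction changed 9.15% of all genes tested in Tem1WT/WT mice, 0% in Tem1lacZ/lacZ mice (1530 genes at an unadjusted p under 0.05) and 9.73% when averaged over the genotypes. Between the genotypes, 0.106% of all genes differed with traction, 0.0106% in sham and 0.053% averaged over the treatments, and 0% showed an interaction (1680 genes at an unadjusted p under 0.05). At an unadjusted p under 0.05 there was 1 T lymphocyte gene for traction in Tem1lacZ/lacZ mice and 1 for the genotype in sham (*Cd4* in both), 2 for the genotype with traction (*Cd4* and *Gzmb*), and *Cd4* alone in both averaged comparisons. There was none for traction in Tem1WT/WT mice and none for the interaction. The median log2 fold change of the 8 genes with traction was 0.33 in Tem1WT/WT mice, where that of all genes was −0.01, and −0.14 in Tem1lacZ/lacZ mice, where that of all genes was also −0.01. Between the genotypes it was −0.87 with traction and −0.32 in sham, against 0.01 and −0.01 for all genes. The comparisons that use the same group share its 3 libraries and are not independent of each other.

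The group of Tem1WT/WT mice with traction was the most uneven for these genes. Replicate 1 was the highest of all 12 libraries for 7 of the 8 genes, where 16.9% of all genes tested were highest in that library. Replicate 3 of the same group was the lowest of the 12 for 6 of the 8, against 16.3% of all genes. For *Cd3d*, *Cd3e*, *Cd3g* and *Foxp3*, replicates 2 and 3 both lay below the 3 sham mice of the same genotype, an order that 24.9% of all genes tested also had, while 24.2% had the opposite order and no T lymphocyte gene was among them. With replicate 1 included, none of the 8 genes separated the traction and sham groups in Tem1WT/WT mice, against 35.7% of all genes tested.

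*Cd3e* encodes the epsilon chain, which every T cell receptor complex contains. Its level was 11.3, 5.92 and 3.47 CPM in replicates 1, 2 and 3 of the Tem1WT/WT sham mice and 17.5, 2.67 and 1.75 CPM in those with traction. The Tem1lacZ/lacZ mice were at 3.21, 3.51 and 1.90 CPM in sham and 3.03, 4.63 and 3.17 CPM with traction. The 6 Tem1lacZ/lacZ libraries thus lay within a narrow band, while the Tem1WT/WT libraries held both the highest and the lowest values. With traction in Tem1WT/WT mice the log2 fold change was 0.09 (SE 0.74, adjusted p = 0.95), and it was −0.06 with upper quartile normalization. Without replicate 1 of that group it was −1.65 (SE 0.50, adjusted p = 0.0788). Between the genotypes, averaged over both treatments, *Cd3e* was −1.14 on the log2 scale (SE 0.53, unadjusted p = 0.0557, adjusted p = 0.186), and without the same library −0.27 (adjusted p = 0.608).

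*Cd3g*, the gamma chain, was at 14.3, 9.73 and 7.27 CPM in Tem1WT/WT sham mice and at 20.7, 3.40 and 1.93 CPM with traction. The Tem1lacZ/lacZ levels were 9.80, 12.1 and 9.14 CPM in sham and 10.7, 11.3 and 5.48 CPM with traction. Replicates 2 and 3 of the Tem1WT/WT mice with traction were below every other library. The log2 fold change with traction in Tem1WT/WT mice was −0.27 (SE 0.70, 95% CI −1.80 to 1.26, adjusted p = 0.825). Without replicate 1 it was −1.98 (SE 0.41, adjusted p = 0.0448), and *Cd3g* was then the 1 T lymphocyte gene that passed the threshold, in a fit where 1.86% of all genes passed. Averaged over the genotypes, and again without that library, traction gave −1.07 (SE 0.26, adjusted p = 0.0371) with 8.78% of all genes past the threshold. Between the genotypes with traction *Cd3g* was 0.08 (SE 0.70, adjusted p = 0.956) with all libraries and 1.80 (SE 0.40, unadjusted p = 0.00105, adjusted p = 0.154) without that library. Among the fits run, the call in Tem1WT/WT mice stood only in the one without that library, with 2 traction mice against 3.

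*Cd3d*, the delta chain, had the lowest mean level of the 3 chains per kilobase in the Tem1WT/WT sham mice. It was at 2.67, 1.51 and 1.44 CPM in Tem1WT/WT sham mice and at 6.16, 0.971 and 0.575 CPM with traction. *Cd3d* in Tem1lacZ/lacZ mice was at 2.62, 1.97 and 1.15 CPM in sham and at 1.55, 2.00 and 1.09 CPM with traction. As with its neighbours in the genome, replicate 1 of the Tem1WT/WT mice with traction was the highest library and replicate 3 of that group the lowest. The log2 fold change with traction in Tem1WT/WT mice was 0.46 (SE 0.73, adjusted p = 0.707), and −1.29 (SE 0.48, adjusted p = 0.126) without replicate 1. In Tem1lacZ/lacZ mice the log2 fold changes of the 3 chains with traction were −0.30, 0.33 and −0.18 for *Cd3d*, *Cd3e* and *Cd3g* (95% CI from −1.92 to 1.98 over the 3 genes). The correlation of log2 CPM over the 12 libraries, given as a description of libraries that share their groups, was 0.886 between *Cd3d* and *Cd3g* and 0.895 without replicate 1 of the Tem1WT/WT mice with traction. Between *Cd3d* and *Cd3e* it was 0.85 and 0.713, and between *Cd3e* and *Cd3g* 0.721 and 0.635.

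*Cd4*, the coreceptor of helper T cells, had the smallest p-values of the 8 genes in all comparisons except the interaction. In Tem1WT/WT mice it was at 17.4, 16.1 and 11.3 CPM in sham and at 48.2, 16.8 and 15.4 CPM with traction. Levels in Tem1lacZ/lacZ mice were 6.85, 6.0 and 5.83 CPM in sham and 6.85, 15.2 and 16.1 CPM with traction. All 3 Tem1lacZ/lacZ sham mice lay below all 3 Tem1WT/WT sham mice, and *Cd4* was the 1 gene of the 8 whose genotypes did not overlap in sham, where 26.8% of all genes tested did not overlap. The log2 difference there was −1.26 (SE 0.44, unadjusted p = 0.016, adjusted p = 0.409). With traction the genotypes overlapped for all 8 genes (26.6% of all genes tested did not), and *Cd4* was at −1.07 (SE 0.44, unadjusted p = 0.0326, adjusted p = 0.158) and at −0.30 (adjusted p = 0.604) without replicate 1 of the Tem1WT/WT mice.

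For traction itself, the log2 fold change of *Cd4* was 0.84 (SE 0.44, adjusted p = 0.211) in Tem1WT/WT mice and 1.03 (SE 0.44, unadjusted p = 0.0397, adjusted p = 0.601) in Tem1lacZ/lacZ mice, and the difference of the 2 effects was 0.19 (SE 0.62, adjusted p = 0.945). The traction and sham groups of Tem1lacZ/lacZ mice overlapped for every one of the 8 genes, against 12.9% of all genes that did not. Of the 3 Tem1lacZ/lacZ mice with traction, 2 were near the Tem1WT/WT level and replicate 1 was at the sham level of its own genotype. Averaged over the genotypes, traction gave 0.94 (SE 0.31, unadjusted p = 0.0118, adjusted p = 0.075), which missed the threshold in edgeR and passed it in DESeq2 (adjusted p = 0.0228, with 18.7% of all genes past the threshold) and in limma-voom (adjusted p = 0.0237, with 20.6%). Averaged over the treatments, the genotypes differed by −1.17 (SE 0.31, unadjusted p = 0.00327, adjusted p = 0.0727), and DESeq2 gave an adjusted p of 0.00689 with 17.7% of all genes past the threshold. Without replicate 1 of the Tem1WT/WT mice with traction, edgeR gave 0.58 (adjusted p = 0.112) for traction and −0.79 (adjusted p = 0.094) for the genotype. *Cd4* did not follow the CD3 chains closely: its correlation with *Cd3g* over the 12 libraries was 0.0608, and −0.391 without that library. The summed level of 15 macrophage and monocyte markers was 2896 to 4817 CPM in Tem1WT/WT and 2336 to 4597 CPM in Tem1lacZ/lacZ sham mice, and 4583 to 6467 CPM and 2658 to 5078 CPM with traction. Their part in the *Cd4* level was not tested.

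*Cd8a*, the alpha chain of the coreceptor of cytotoxic T cells, was the 1 gene of the 8 that was not highest in replicate 1 of the Tem1WT/WT mice with traction. It was at 2.99, 1.42 and 3.49 CPM in Tem1WT/WT sham mice and at 2.14, 1.52 and 0.472 CPM with traction. The Tem1lacZ/lacZ mice were at 4.33, 2.02 and 3.03 CPM in sham and at 0.690, 1.77 and 3.41 CPM with traction. The groups overlapped in both genotypes. The log2 fold changes with traction were −0.93 (SE 0.64, adjusted p = 0.337) and −0.67 (SE 0.63, adjusted p = 0.78), with −0.80 averaged over the genotypes (95% CI −1.79 to 0.18, adjusted p = 0.246). *Cd8b1*, the beta chain, was likewise between 0.616 and 1.19 CPM in the Tem1WT/WT mice with traction and between 0.739 and 4.35 CPM elsewhere. *Cd4* and *Cd8a* were nearly unrelated across the libraries (r = −0.0744, n = 12 libraries).

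*Il2rb* encodes the beta chain shared by the receptors for interleukin-2 and interleukin-15 on activated T cells and NK cells. It was at 13.2, 6.21 and 8.79 CPM in Tem1WT/WT sham mice and at 44.7, 4.41 and 6.59 CPM with traction. The Tem1lacZ/lacZ values were 8.75, 7.33 and 6.09 CPM in sham and 5.25, 7.05 and 7.63 CPM with traction. A single library was thus 4.76 times the Tem1WT/WT sham mean, while the mean of the other 2 mice of its group was 0.586 times that mean. With traction in Tem1WT/WT mice the log2 fold change was 0.98 (SE 0.69, adjusted p = 0.357) with that library and −0.79 (SE 0.34, adjusted p = 0.168) without it. Between the genotypes with traction it was −1.48 (SE 0.70, adjusted p = 0.21) and 0.31 (SE 0.34, adjusted p = 0.6).

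*Gzmb*, the protease granzyme B of cytotoxic granules, had a level in replicate 1 of the Tem1WT/WT mice with traction that was 6.57 times the Tem1WT/WT sham mean, the highest such ratio of the 8 genes. It was at 2.63, 1.90 and 3.11 CPM in Tem1WT/WT sham mice and at 16.7, 2.07 and 0.863 CPM with traction. In Tem1lacZ/lacZ mice it was at 2.31, 1.68 and 1.76 CPM in sham and at 1.40, 1.98 and 1.88 CPM with traction. Outside replicate 1 of the Tem1WT/WT mice with traction, all 11 libraries lay between 0.863 and 3.11 CPM. The log2 fold change with traction in Tem1WT/WT mice was 1.36 (SE 0.81, adjusted p = 0.27) with that library and −0.80 (SE 0.41, adjusted p = 0.231) without it. Between the genotypes with traction *Gzmb* was at −1.89 (SE 0.82, unadjusted p = 0.042, adjusted p = 0.177) and at 0.29 (SE 0.41, adjusted p = 0.691) without the library, and the interaction was −1.48 (SE 1.14, adjusted p = 0.681).

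*Foxp3*, the transcription factor that defines regulatory T cells, was at 2.69, 1.78 and 1.90 CPM in Tem1WT/WT sham mice and at 4.66, 1.77 and 0.924 CPM with traction. In Tem1lacZ/lacZ mice it was at 2.09, 1.92 and 1.21 CPM in sham and at 1.31, 2.67 and 1.92 CPM with traction. The log2 fold changes with traction were 0.21 (95% CI −0.93 to 1.34, adjusted p = 0.82) in Tem1WT/WT and 0.18 (95% CI −0.97 to 1.32, adjusted p = 0.939) in Tem1lacZ/lacZ mice, and −0.67 (adjusted p = 0.336) in Tem1WT/WT mice without replicate 1. *Foxp3* followed *Cd3d* (r = 0.886) and *Cd3e* (r = 0.883) over the 12 libraries more closely than *Cd4* (r = 0.615), with 0.784, 0.782 and 0.272 without replicate 1 of the Tem1WT/WT mice with traction.

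**Figure D2:**
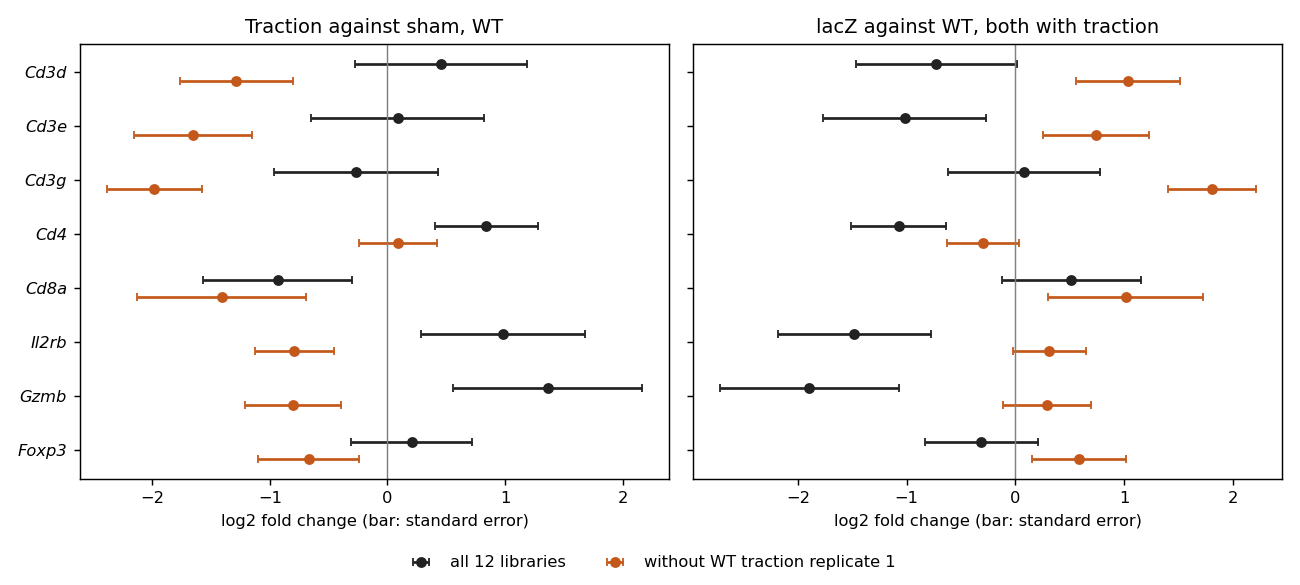
Log2 fold changes of the 8 T lymphocyte genes from edgeR with standard errors derived from its F statistic, for traction against sham in Tem1WT/WT mice (left) and for Tem1lacZ/lacZ against Tem1WT/WT mice with traction (right). Black points use all 12 libraries and orange points leave out replicate 1 of the Tem1WT/WT mice with traction; on the left Cd3d, Cd3e, Il2rb, Gzmb and Foxp3 change sign between the fits, and Cd4 stays above 0 in both.

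Leaving out that library turned the sign of *Cd3d*, *Cd3e*, *Il2rb*, *Gzmb* and *Foxp3* in Tem1WT/WT mice. The 8 genes then numbered 1 above and 7 below 0, with a median log2 fold change of −1.05, where that of all genes was −0.05. With all libraries 6 were above and 2 below 0. Between the genotypes with traction the median was −0.87 with all libraries and 0.66 without the library, where *Cd4* alone was below 0. In the interaction all 8 genes were above 0 without it, from 0.67 to 2.02, of which *Cd3e* (2.02, unadjusted p = 0.0103) and *Cd3g* (1.83, unadjusted p = 0.00483) had an adjusted p of 0.558.

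Of 30 other genes of T cell receptor signalling listed, 27 had a row and were tested. Replicate 1 of the Tem1WT/WT mice with traction was the highest of the 12 libraries for 18 of the 27 and replicate 3 of that group the lowest for 17, while *Gata3*, *Trat1*, *Cd8b1* and *Prkcq* were among those highest elsewhere. *Trac*, *Trbc1* and *Trbc2*, the constant chains of the alpha beta receptor, have no value here. *Cd247*, the zeta chain, was at 9.14, 5.64 and 4.60 CPM in Tem1WT/WT sham mice, at 16.5, 3.00 and 2.20 CPM with traction, and between 3.77 and 6.66 CPM in the 6 Tem1lacZ/lacZ libraries. The highest and the 2 lowest values again lay in the Tem1WT/WT traction group. With traction in Tem1WT/WT mice 17 of the 27 genes were above and 10 below 0, with a median of 0.15, and in Tem1lacZ/lacZ mice 10 were above and 17 below 0, with a median of −0.19. Between the genotypes the median was −0.64 with traction and −0.25 in sham. *Gata3*, the factor of type 2 helper T cells that skin epithelium also expresses, and *Trat1*, an adaptor of the T cell receptor, were the 2 that passed the threshold in Tem1WT/WT mice, and both fell.

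*Gata3* was at 85.7, 87.8 and 49.7 CPM in Tem1WT/WT sham mice and at 23.0, 36.5 and 31.1 CPM with traction, a log2 fold change of −1.30 (SE 0.29, adjusted p = 0.0326). *Trat1* was at 9.07, 2.89 and 3.09 CPM in sham and at 1.07, 1.74 and 0.739 CPM with traction, a log2 fold change of −2.08 (SE 0.55, adjusted p = 0.0427). Neither gene was high in replicate 1 of the traction group, in which *Trat1* was below every sham library. *Gata3* lost the call without replicate 1 or 2 of the sham group or replicate 1 or 3 of the traction group, and *Trat1* without any sham replicate or replicate 1 or 3 of the traction group (adjusted p up to 0.124 and 0.157). In Tem1lacZ/lacZ mice their log2 fold changes were 0.29 (adjusted p = 0.784) and −0.72 (adjusted p = 0.705), and the interactions were 1.59 (adjusted p = 0.548) and 1.35 (adjusted p = 0.588). Averaged over the genotypes *Trat1* fell by 1.40 on the log2 scale (SE 0.38, adjusted p = 0.0446), a call kept in 3 of 12 fits without a library. Without replicate 1 of the Tem1WT/WT mice with traction, 26 of the 27 genes were below 0 in Tem1WT/WT mice, with a median of −1.08. *Prkcq*, the kinase PKC theta, then passed at −1.59 (adjusted p = 0.0441), while *Gata3* and *Trat1* were at −1.15 (adjusted p = 0.0644) and −2.02 (adjusted p = 0.0878). In Tem1WT/WT sham mice *Prkcq* was at 23.9 to 39.3 CPM, above each CD3 chain (*Cd3g* up to 14.3 CPM), and which cells it came from was not tested. *Thy1*, which fibroblasts also express, was at 194 to 307 CPM in Tem1WT/WT sham mice and at 452, 259 and 343 CPM with traction.

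In the list of gamma delta and skin-resident T cell genes, 12 of 25 had a row and 10 were tested. None passed the threshold in any comparison, and with traction the median was 0.21 in Tem1WT/WT mice and 0.0047 in Tem1lacZ/lacZ mice. The genes of the gamma delta receptor itself are not among the 12. The T cells with this receptor are therefore seen here only through the CD3 chains that they share with the others and through listed genes outside the receptor. Without replicate 1 of the Tem1WT/WT mice with traction, 8 of the 10 were below 0 in Tem1WT/WT mice, with a median of −1.05.

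Among the regulatory T cell genes, 13 of 14 were tested beside *Foxp3*. With traction in Tem1WT/WT mice 9 were above and 4 below 0, with a median of 0.84, and in Tem1lacZ/lacZ mice the median was −0.13. Without replicate 1 of the Tem1WT/WT mice with traction, 4 were above and 9 below 0 in Tem1WT/WT mice, with a median of −0.67. The 3 genes that passed in Tem1WT/WT mice are named after their values were seen. *Tnfrsf9*, the activation receptor 4-1BB, rose by 3.29 on the log2 scale (SE 0.63, adjusted p = 0.0278), *Lrrc32*, the cell surface docking protein of latent TGF-β that other cells also carry, rose by 1.23 (SE 0.26, adjusted p = 0.0311), and *Ikzf2*, the factor Helios, fell by 1.36 (SE 0.36, adjusted p = 0.0446). *Ikzf2* was at 44.8, 18.4 and 22.0 CPM in Tem1WT/WT sham mice, where *Foxp3* was at 1.78 to 2.69 CPM. With traction *Ikzf2* was at 10.4, 15.9 and 6.90 CPM. Which cells the RNA of these 3 genes came from was not tested. *Tnfrsf9* was at 75.7, 18.6 and 13.8 CPM in the 3 mice with traction and at 2.52 to 4.91 CPM in sham, so all 3 mice with traction were above the sham mice. Without replicate 1 it stood at 2.12 (adjusted p = 0.0433), *Lrrc32* at 1.24 (adjusted p = 0.0528) and *Ikzf2* at −1.33 (adjusted p = 0.0919), and other omissions ended calls as well: *Tnfrsf9* without replicate 1 or 2 of the sham group, *Lrrc32* without these or replicate 3 of the traction group, and *Ikzf2* without any sham replicate or replicate 3 of the traction group (adjusted p up to 0.121, 0.123 and 0.157). Averaged over the genotypes *Tnfrsf9* (1.75, adjusted p = 0.035) and *Lrrc32* (0.96, adjusted p = 0.0231) passed as well, calls kept in 5 and 6 of 12 fits without a library (adjusted p up to 0.0919 and 0.071). In this comparison the median of the 13 genes was 0.32 with all libraries. Without replicate 1 of the Tem1WT/WT mice with traction, 5 were above and 8 below 0 (median −0.64). *Icos*, *Tnfrsf4* and *Tnfrsf18* then fell past the threshold, beside the rises of *Tnfrsf9* and *Lrrc32*, in a fit where 8.78% of all genes passed. In Tem1lacZ/lacZ mice *Tnfrsf9* was at 3.11 to 4.76 CPM in sham and at 2.93 to 6.98 CPM with traction, and its log2 fold change was 0.21 (SE 0.59, adjusted p = 0.936).

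Of the NK and cytotoxic genes, 16 of 17 were tested and none passed in any comparison. *Nkg7*, *Prf1* and *Gzma*, which with *Gzmb* serve the cytotoxic granule, did not share its high value. *Nkg7* was at 3.49, 0.928 and 2.59 CPM in Tem1WT/WT sham mice and at 1.95, 0.861 and 0.739 CPM with traction. *Prf1*, the pore-forming perforin, was at 7.86, 2.32 and 1.57 CPM in sham and at 3.50, 1.15 and 0.760 CPM with traction. *Gzma*, granzyme A, was at 2.43, 0.261 and 1.62 CPM in sham and at 2.28, 0.177 and 0.267 CPM with traction. For all 3 genes a sham mouse had the highest value of the 6. The median of the 16 genes was −0.82 in Tem1WT/WT and −0.01 in Tem1lacZ/lacZ mice, and −1.43 with all 16 below 0 in Tem1WT/WT mice without replicate 1 of the traction group. The summed level of the 17 genes was 69.5, 11.5 and 11.4 CPM in Tem1WT/WT mice with traction and 14.8 to 45.9 CPM in sham, and *Ccl5* made up 36.1 CPM of the 69.5.

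**Figure D3:**
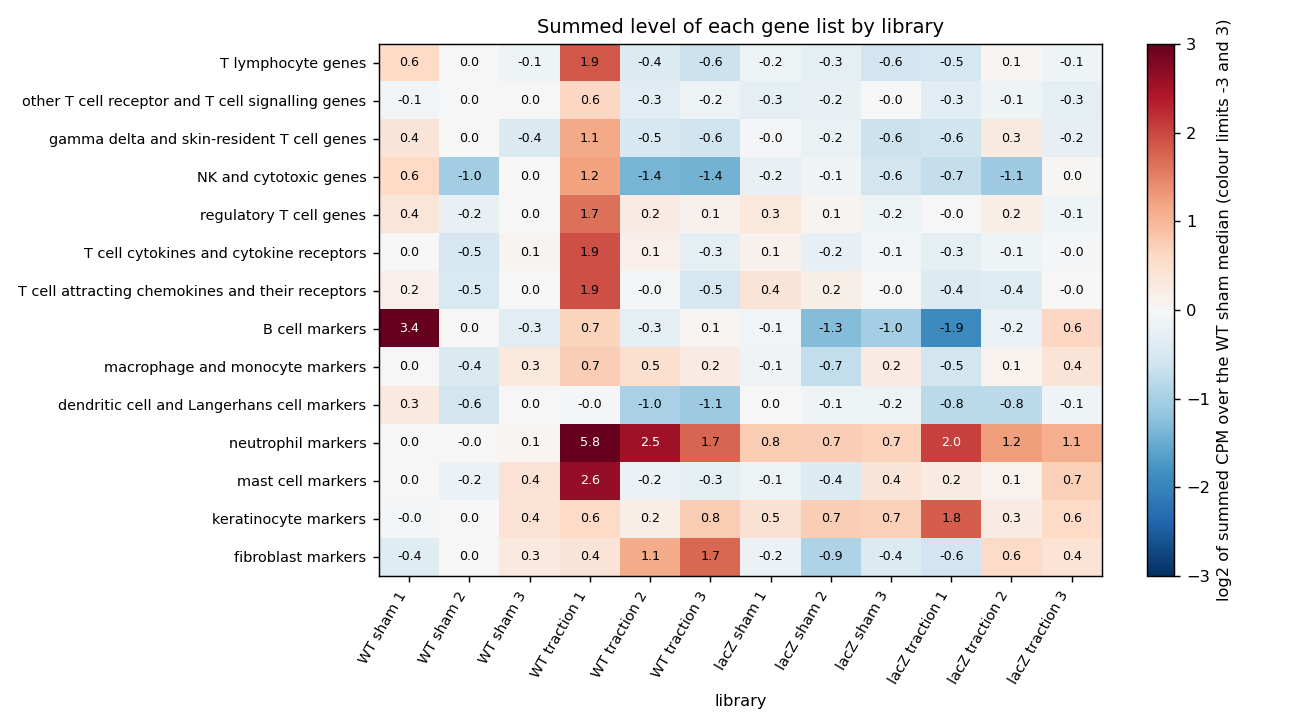
Summed CPM of each gene list in each library, as the log2 ratio to the median of the Tem1WT/WT sham mice (red above, blue below, colours limited at −3 and 3). In the column of replicate 1 of the Tem1WT/WT mice with traction the T lymphocyte genes are at 1.9, as are the T cell cytokines and chemokines, and the neutrophil markers at 5.8.

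The CD3 chains were next set against *Ptprc* in the same library. *Ptprc* was at 149, 111 and 153 CPM in Tem1WT/WT sham mice and at 567, 249 and 83.6 CPM with traction, and at 124, 71.0 and 125 CPM and at 93.0, 138 and 162 CPM in Tem1lacZ/lacZ mice. The summed CD3 chains per 100 CPM of *Ptprc* were 18.9, 15.5 and 7.95 in Tem1WT/WT sham mice and 7.83, 2.83 and 5.09 with traction. On this scale replicate 1 no longer stood apart, and all 3 mice with traction were below all 3 sham mice, although the closest pair was at 7.83 and 7.95. Divided by *Ptprc*, 2440 single genes (12.9% of those tested) also lay below sham without overlap in these mice, and only 255 lay above. The mean CD3 ratios were 5.25 ± 2.50 with traction and 14.1 ± 5.61 in sham (SD, n = 3). Their difference of −8.86 had an exact permutation p of 0.1 (two-sided), the smallest that 3 against 3 can give. In Tem1lacZ/lacZ mice the ratio was 12.6, 24.8 and 9.73 in sham and 16.4, 13.0 and 6.02 with traction. Here the groups overlapped, with means of 15.7 ± 7.97 and 11.8 ± 5.29 (SD, n = 3) and an exact permutation p of 0.7, and the difference of −3.93 became 0.60 without replicate 2 of the sham group. Whether the ratio moved differently in the genotypes was not tested. Divided by the macrophage and monocyte markers in place of *Ptprc*, the Tem1WT/WT groups overlapped and the exact permutation p was 0.3, so the separation depended on the gene used as the scale.

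**Figure D4:**
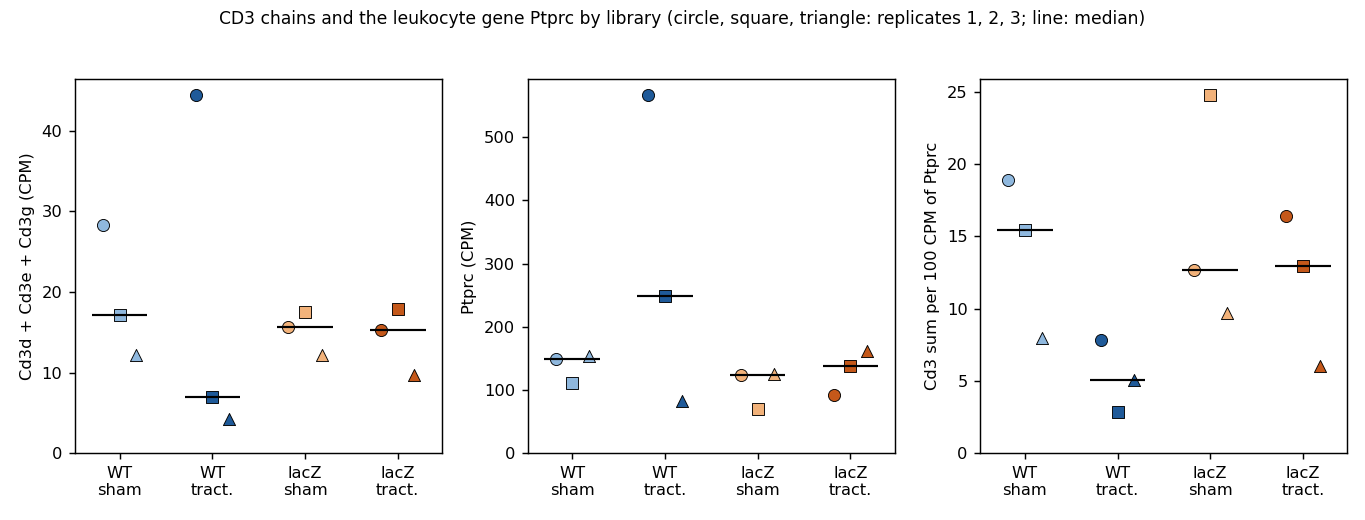
Summed CPM of Cd3d, Cd3e and Cd3g (left), CPM of Ptprc (middle) and their ratio per 100 CPM of Ptprc (right) in each library, on linear axes. Circles, squares and triangles are replicates 1, 2 and 3 and lines are group medians; the 3 Tem1WT/WT mice with traction have ratios from 2.83 to 7.83 and the sham mice of that genotype from 7.95 to 18.9.

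Divided by *Ptprc*, the other genes differed among themselves. *Cd8a* per 100 CPM of *Ptprc* was 2.01, 1.28 and 2.27 in Tem1WT/WT sham mice and 0.378, 0.612 and 0.565 with traction, so that the groups did not overlap. *Cd8a* in Tem1lacZ/lacZ mice was 3.50, 2.84 and 2.42 in sham and 0.742, 1.28 and 2.11 with traction, also without overlap. *Cd4* in Tem1WT/WT mice was 11.7, 14.5 and 7.39 in sham and 8.51, 6.76 and 18.4 with traction, and *Gzmb* was 1.76, 1.71 and 2.03 in sham and 2.95, 0.833 and 1.03 with traction. For *Cd4* and *Gzmb* the highest of the 6 values was therefore a traction mouse, replicate 3 for *Cd4* and replicate 1 for *Gzmb*. *Il2rb* was 8.84, 5.59 and 5.74 in sham and 7.89, 1.77 and 7.89 with traction, which overlapped. *Foxp3* was 1.80, 1.61 and 1.24 in sham and 0.823, 0.709 and 1.11 with traction, again without overlap. On this scale *Cd3g*, *Cd8a* and *Foxp3* were thus the 3 genes of the 8 that lay below sham without overlap in Tem1WT/WT mice, where 12.9% of all genes tested also did, and *Cd8a* the 1 gene in Tem1lacZ/lacZ mice, where 4.4% did. *Ptprc* itself had a mean of 138 CPM in Tem1WT/WT sham mice and 299.7 CPM with traction. Ratios of these single genes were added after the data were examined and are a description with no test.

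Genes whose levels were most like those of the T lymphocyte genes were listed by Pearson's r of log2 CPM over the 12 libraries, as a description. Among the nearest to the mean profile of the 3 CD3 chains were *Cd247* (0.993), *Prdm1* (0.948), *Lat* (0.942), *Ptprcap* (0.939) and *Orm2* (0.938), the last at a mean of only 0.233 CPM. Without replicate 1 of the Tem1WT/WT mice with traction these were 0.991, 0.908, 0.945, 0.928 and 0.891. The genes nearest to *Cd4* were *Brpf1* (0.957), *Hdac4* (0.957) and *Zfp36l1* (0.955), and those nearest to *Cd8a* were *Klra14-ps* (0.895), *Cd8b1* (0.892) and *Tnip3* (0.88). *Il2rb* was nearest to *Tap1* (0.98), *Pdcd1lg2* (0.96) and *Psmb9* (0.959), *Gzmb* to *Nampt* (0.951), *Malt1* (0.951) and *Acap1* (0.942), and *Foxp3* to *Tbc1d10c* (0.939), *AI504432* (0.936) and *Mta3* (0.917). The likeness to *Gzmb* was the one that rested most on replicate 1 of the Tem1WT/WT mice with traction, since the 3 values were 0.723, 0.763 and 0.734 without it.

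Markers of other cells moved in the same libraries. With traction in Tem1WT/WT mice, a comparison in which 9.15% of all genes passed, all 12 neutrophil genes tested were above 0 (median log2 fold change 3.69) and 6 passed the threshold. Of 12 dendritic and Langerhans cell genes 10 were below 0 (median −0.72) and *Xcr1*, *Cd207*, *Epcam* and *Cd209a* fell. *Epcam* was at 159 to 243 CPM in Tem1WT/WT sham mice, where *Cd207* was at 13.4 to 27.7 CPM. Which cells *Epcam* came from was not tested. In the macrophage and monocyte list 11 of 15 were above 0 (median 0.35) with 1 rise, and in the fibroblast list 7 of 8 (median 0.99) with 2 rises. The mast cell list had 1 rise and 1 fall among 9 (median 0.16), the keratinocyte list 1 fall among 8 (median 0.06) and the B cell list none among 6 (median 0.22). Without replicate 1 of the traction group, 10 of 13 neutrophil genes tested were above 0 (median 0.93) and 2 passed. In that fit 1.86% of all genes passed. Of the dendritic and Langerhans cell genes 11 were then below 0 (median −1.09), and *Xcr1* alone passed. No macrophage and monocyte, fibroblast, mast cell, keratinocyte or B cell gene passed (medians 0.34, 0.95, −0.42, −0.22 and −0.31). The summed fibroblast markers were at 26186 to 41451 CPM in Tem1WT/WT sham mice and at 44250, 72421 and 110973 CPM with traction, the highest in replicate 3, in which *Cd3d*, *Cd3e*, *Cd3g*, *Cd8a*, *Gzmb* and *Foxp3* were lowest. The part of these cells in the levels of the T lymphocyte genes was not tested.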

How the data were processed

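Scar RNA of 3 mice in each of 4 groups was sequenced from stranded poly(A) libraries as paired-end reads. According to the study's methods and the submitters' processing notes, reads were trimmed with fastp 0.20.0, aligned to GRCm38 with HISAT2 2.1.0 and counted with featureCounts 2.0.0. The authors deposited the read counts per gene and library as whole numbers, without normalization. Which annotation was counted against, whether strand was used and how multi-mapping reads were treated is not given in the sources used here.

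Counts were fitted in edgeR 4.0.16 (R 4.3.3) with filterByExpr by group, TMM scaling and a robust quasi-likelihood model of the 4 groups, which left 8 residual degrees of freedom. The biological coefficient of variation was 34.2%. Tests were two-sided and adjusted by Benjamini-Hochberg over all 18853 genes tested, with a threshold of 0.05 for each comparison. The study's own tool, DESeq2 (1.42.0 here), limma 3.58.1 with voom and sample weights, other scalings and filters, the replicate number as a block, the compared libraries alone and leaving out each library were alternatives. The CD3 to *Ptprc* ratio was tested by an exact permutation test. Fits were tested on simulated data with 200 changed genes. Correlations used log2 CPM with a prior count of 2. Coordinates and exon lengths came from GENCODE vM21 and promoter sequences from RefSeq on GRCm38. Figures were drawn with matplotlib 3.10.9.

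The genes and lists were chosen with earlier results of these data known. By rule, all 9 T lymphocyte genes were named, with *Ptprc*, *Trac*, *Trbc1*, *Trbc2*, *Cd247*, *Thy1*, *Nkg7*, *Prf1*, *Gzma*, any T cell signalling or NK gene that passed the threshold, and the genes nearest in profile, of which 1 is not reported here. Replicates are separate mice. Of the 66 pairs of libraries, none shared more than 1.62% of its values.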

Additional observations from a re-analysis of the deposited data

How the results depend on the processing

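The number of T lymphocyte genes past the threshold stayed at 0 in 110 repeats of the 7 counts and moved in 10. It was 1 for traction averaged over the genotypes with DESeq2, limma-voom or an adjusted p under 0.1, and 1 for the genotype averaged over the treatments with DESeq2 or an adjusted p under 0.1, in each case *Cd4*. Leaving out each library gave 0 to 1 for traction in Tem1WT/WT mice, for traction averaged over the genotypes and for the genotype averaged over the treatments. The call was *Cd3g* without replicate 1 of the Tem1WT/WT mice with traction (in Tem1WT/WT mice and averaged), and *Cd4* for traction without replicate 2 of that group (adjusted p = 0.0468) or replicate 1 of the Tem1lacZ/lacZ mice with traction (adjusted p = 0.0325), and for the genotype without replicate 2 of the Tem1WT/WT mice with traction (adjusted p = 0.0472). Over all 7 comparisons, 904 repeats of the 8 fold changes kept the direction in 801 and turned it in 103, of which 28 were in the interaction, and 8 repeats passed the threshold.

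Limma-voom, which gives uneven libraries less weight, reversed traction in Tem1WT/WT mice for *Cd3d* (−0.53), *Cd3e* (−0.74), *Il2rb* (−0.19), *Gzmb* (−0.075) and *Foxp3* (−0.18), and the genotype with traction for *Cd3d* (0.28), *Cd3e* (0.15), *Il2rb* (0.0062) and *Foxp3* (0.26). Upper quartile normalization, which moved the median of all genes by −0.12 with traction in Tem1WT/WT mice and by 0.14 between the genotypes with traction, gave −0.059 for *Cd3e* in Tem1WT/WT mice. Without each library in turn, traction in Tem1WT/WT mice ran from −1.29 to 0.94 for *Cd3d*, −1.65 to 0.63 for *Cd3e*, −1.98 to 0.22 for *Cd3g*, −0.79 to 1.47 for *Il2rb*, −0.80 to 1.89 for *Gzmb* and −0.67 to 0.61 for *Foxp3*. The genotype with traction ran from −1.20 to 1.03 for *Cd3d*, −1.48 to 0.74 for *Cd3e*, −0.40 to 1.80 for *Cd3g*, −0.15 to 1.01 for *Cd8a*, −1.95 to 0.31 for *Il2rb*, −2.41 to 0.29 for *Gzmb* and −0.70 to 0.58 for *Foxp3*. Traction in Tem1lacZ/lacZ mice ran from −0.54 to 0.031 for *Cd3d*, −0.36 to 0.076 for *Cd3g* and −0.10 to 0.44 for *Foxp3*. The interaction of *Gzmb* was 0.099 with limma-voom and ran from −1.98 to 0.72 without each library, and that of *Cd4* ran from −0.071 to 0.98, and the difference of the CD3 to *Ptprc* ratio in Tem1lacZ/lacZ mice from −6.92 to 0.60. With 1 library left out, a group of 2 is assumed to vary like the other groups, and the causes of these changes were not tested beyond the libraries named.

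With the replicate number as a block, 0 T lymphocyte genes passed in any comparison and *Cd3e* in Tem1WT/WT mice with traction was at −0.23. The sample labels link same-numbered mice of different groups by the number alone. Libraries of different groups were correlated by the deviations of their log2 CPM from the group means. Of 18 such pairs with the same number 8 were above 0.1 (r from −0.324 to 0.25). Pairs with different numbers ran from −0.403 to 0.373. For 9 of 12 libraries the mean correlation was highest with their own number. Whether same-numbered mice were handled together is not given in the sources used here.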

Other observations

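Cytokines and chemokines of T cells were also measured in the same libraries. *Il17a*, a cytokine of gamma delta and helper T cells, was at 16.1 CPM in replicate 1 of the Tem1WT/WT mice with traction and at 0 to 0.290 CPM in the other 11 libraries. *Ifng*, the interferon of T and NK cells, was at 2.66 CPM there and at 0 to 0.415 CPM elsewhere. The chemokines *Cxcl9* and *Cxcl10*, which attract T cells and are induced by interferon, were at 242 and 84.6 CPM there, against 3.53 to 25.1 CPM and 3.64 to 12.5 CPM in the others. No test is given for these 4 genes, whose high values lie in 1 library. They were named after their values were seen.

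Over the lists, 10 of 16 T cell cytokine and receptor genes were tested and none passed in any comparison, with a median log2 fold change with traction of 0.50 in Tem1WT/WT and −0.24 in Tem1lacZ/lacZ mice. Of 18 chemokine and receptor genes 16 were tested, with medians of 0.72 and −0.47. Without replicate 1 of the Tem1WT/WT mice with traction, the cytokine list in Tem1WT/WT mice had 3 genes above and 7 below 0 (median −0.68). The chemokine list then had 3 above and 13 below 0 (median −0.97). *Ccl20*, which attracts cells with the receptor Ccr6, fell in Tem1WT/WT mice (log2 fold change −2.10, SE 0.50, adjusted p = 0.0352) and averaged over the genotypes (−1.96, SE 0.35, adjusted p = 0.021). It was at 8.96, 2.52 and 3.86 CPM in Tem1WT/WT sham mice and at 0.785, 1.83 and 0.945 CPM with traction, so replicate 1 was not high for this gene. Without that replicate, however, no gene of the chemokine list passed in Tem1WT/WT mice, in a fit where 1.86% of all genes did. Averaged over the genotypes *Ccl27a* also fell past the threshold. Without the replicate *Ccl20* and *Ccl27a* kept these averaged calls, and *Ccl22* and *Ccl17* fell past the threshold too. *Jchain*, of antibody-secreting cells, was at 111 CPM in replicate 1 of the Tem1WT/WT sham mice and at 0.148 to 9.61 CPM in the other libraries, and this sham library was also the highest of its group for *Cd3d*, *Cd3e*, *Cd3g*, *Cd4*, *Il2rb* and *Foxp3*.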
